A study of Mus musculus with 12 samples.

Results

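The 8 tumors described here were chosen by measured values, as the 4 with the highest and the 4 with the lowest level of surfactant genes among the 12 mouse lung tumors of the study. The rule averaged the deposited log2 values of *Sftpc*, *Sftpb*, *Sftpa1*, *Sftpd* and *Lamp3* in each tumor, and this average is called the surfactant score. All other genes were then compared between the 4 surfactant-high and the 4 surfactant-low tumors, and the 4 tumors in the middle of the order were kept apart. Since the score came from the same libraries, the comparison between the high and the low tumors is a description and carries no test.

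The study sequenced polyadenylated RNA from the CD45-negative (non-immune) cells of lung tumors that were cut out by hand from mice of a C57BL6/J background and dissociated. All mice had received 6000 viral units of a lentiviral vector through the trachea, which carries Cre under the PGK promoter and PPARaD13, a dominant negative form of the nuclear receptor PPARα, under a doxycycline-responsive promoter. All mice carried Cre-activated alleles that start lung tumors and the transactivator rtTA under the promoter of CCSP, a club cell protein, and tumors were taken 26 weeks after initiation. The 3 KP tumors (wt/wt for the *Slc2a1* gene, which encodes the glucose transporter Glut1) and the 3 KPG1 tumors (fl/fl, with floxed *Slc2a1*) came from mice on a regular diet. The 3 KP_PPARaDN and the 3 KPG1_PPARaDN tumors had the same genotypes, and their mice had eaten food with 625 mg/kg doxycycline for 15 days, the diet meant to switch on PPARaD13, so diet and induction cannot be told apart. By the number read as the mouse in the labels, the 12 tumors came from 9 mice, and the total count per tumor was 25263794 to 32654223.

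Pulmonary surfactant is the lipid and protein film that lowers surface tension in the alveoli, and alveolar type 2 cells make it. These cells store its lipids with the hydrophobic proteins SP-B and SP-C in lamellar bodies, which fuse with the cell surface to release them, while the collectins SP-A and SP-D bind microbes and lipids in the airspace. Lung adenocarcinomas of this mouse model often keep features of alveolar type 2 cells, and the transcription factors NKX2-1, C/EBPα, FOXA1 and FOXA2 are known to act on surfactant genes.

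The sequences upstream of the score genes are shown with motifs of factors known to act on surfactant genes, and no motif was found in all 3 windows. RefSeq (GRCm38.p6, the genome of mm10) gave the 250 bases before the start of 3 of the 5 score genes, read 5′ to 3′ on the strand of the gene. Capitals mark the core NKX2-1 motif TCAAG, the C/EBP motif TTNNGNAA and the forkhead motif TGTTTNC, searched on both strands with overlaps allowed. *Sftpb*, chr6:72304360-72304609 on the plus strand, held 2 NKX2-1 cores, 1 C/EBP and 1 forkhead motif, *Sftpa1*, chr14:41131538-41131787 on the plus strand, held 2 NKX2-1 cores, and *Lamp3*, chr16:19706366-19706615 on the minus strand, held 2 forkhead motifs.
Sftpb: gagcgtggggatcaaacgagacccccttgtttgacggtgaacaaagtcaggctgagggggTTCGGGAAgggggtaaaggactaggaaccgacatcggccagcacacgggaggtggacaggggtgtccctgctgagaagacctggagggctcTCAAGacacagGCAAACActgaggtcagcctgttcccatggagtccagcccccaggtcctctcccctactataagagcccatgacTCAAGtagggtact
Sftpa1: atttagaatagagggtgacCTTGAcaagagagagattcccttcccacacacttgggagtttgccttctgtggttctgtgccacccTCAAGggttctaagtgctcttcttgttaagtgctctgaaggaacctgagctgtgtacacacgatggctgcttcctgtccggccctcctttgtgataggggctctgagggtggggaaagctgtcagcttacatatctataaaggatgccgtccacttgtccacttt
Lamp3: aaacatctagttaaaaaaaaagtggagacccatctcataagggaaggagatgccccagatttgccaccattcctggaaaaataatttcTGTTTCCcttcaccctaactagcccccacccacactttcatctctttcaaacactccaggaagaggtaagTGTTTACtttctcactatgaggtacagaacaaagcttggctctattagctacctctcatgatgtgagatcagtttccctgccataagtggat
These short motifs are common: 35.9% of 32851 promoters of the same length held TCAAG, 36.8% held TTNNGNAA and 17.8% held TGTTTNC. Of the other alveolar type 2 genes counted as higher, the window of *Slc34a2* held 1 C/EBP motif, and those of *Cxcl15* and *Lrp2* held none of the motifs. A match is a description of the letters and not a site.

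In the order of the score, the surfactant-high tumors were KPG1 replicate 2 at 13.00, KP_PPARaDN replicate 3 at 12.54, KP replicate 3 at 12.47 and KPG1 replicate 3 at 12.46, all as the mean of log2 CPM, which is the read count relative to the scaled size of the library. The surfactant-low tumors were KP_PPARaDN replicate 2 at 11.24, KP replicate 2 at 11.23, KP_PPARaDN replicate 1 at 10.95 and KPG1_PPARaDN replicate 1 at 10.89. Both sides thus held KP and KP_PPARaDN tumors, KPG1 tumors were on the high side alone, and the only KPG1_PPARaDN tumor chosen was low. The high side had 3 tumors of mice on the regular diet and 1 of a mouse on doxycycline, against 1 and 3 on the low side, so the contrast holds part of the diet contrast. It had 3 tumors of males and 1 of a female, against 1 and 3 on the low side, and 2 tumors of each *Slc2a1* genotype, against 3 wt/wt and 1 fl/fl. The 8 tumors came from 8 mice, so no mouse gave 2 of them.

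The threshold fell within a near-continuous order. The lowest surfactant-high tumor, KPG1 replicate 3 at 12.46, stood just above KPG1 replicate 1 at 12.33, which came from the same mouse as the highest-scoring tumor. The highest surfactant-low tumor, KP_PPARaDN replicate 2 at 11.24, stood below KPG1_PPARaDN replicate 2 at 11.55. The other middle tumors were KP replicate 1 at 12.27 and KPG1_PPARaDN replicate 3 at 11.84. Tumors of the same mouse differed in the score by 1.04 (KP replicates 1 and 2), 0.95 (KPG1_PPARaDN replicates 3 and 1) and 0.67 (KPG1 replicates 2 and 1). By group the score was 12.60 ± 0.35 in KPG1, 11.99 ± 0.66 in KP, 11.58 ± 0.85 in KP_PPARaDN and 11.43 ± 0.49 in KPG1_PPARaDN (mean ± SD, n = 3 tumors each).

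**Figure D1:**
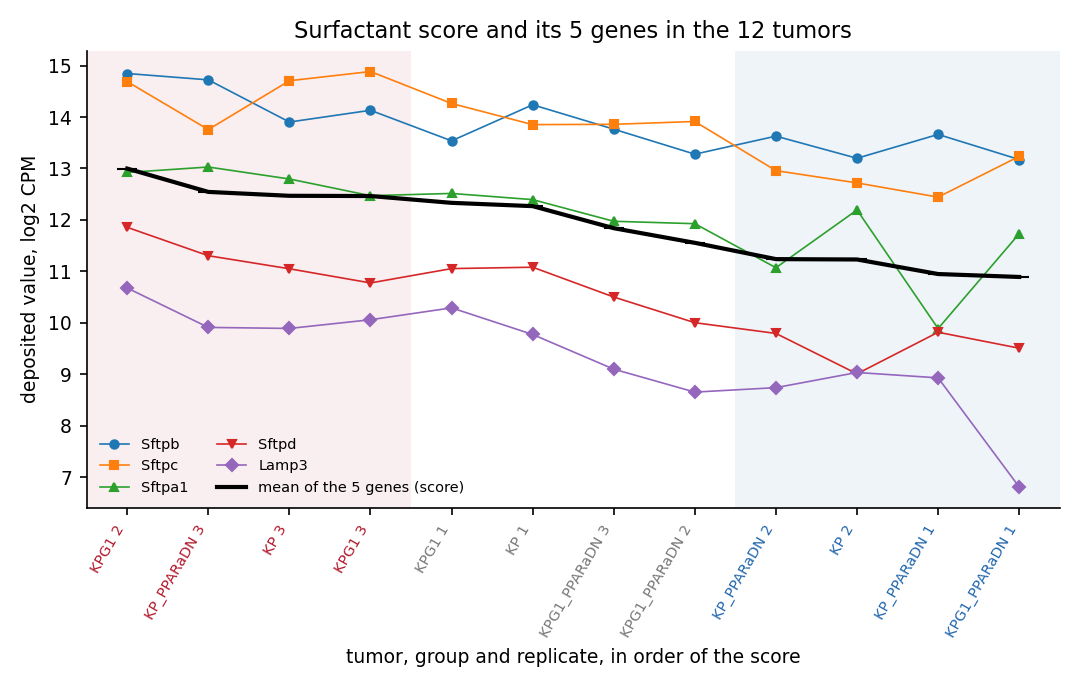
Deposited log2 CPM (y axis) of the 5 score genes and their mean in the 12 tumors, ordered by the mean (x axis), with the surfactant-high tumors shaded red and the surfactant-low tumors shaded blue. The mean falls from 13.00 to 10.89 without a wide gap, and Lamp3 drops to 6.81 in the last tumor.

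The 5 score genes did not fall by the same amount, and their values chose the tumors. *Lamp3*, which encodes a lysosome-associated membrane protein of lamellar bodies, was at 10.68, 9.91, 9.89 and 10.06 log2 CPM in the high tumors, in the order of the score, and at 8.74, 9.03, 8.93 and 6.81 in the low tumors. *Sftpd* (SP-D) was at 11.86, 11.30, 11.05 and 10.77 against 9.79, 9.01, 9.82 and 9.51. *Sftpc* (SP-C; chr14:70520949-70524081, minus strand) was at 14.69, 13.76, 14.71 and 14.88 against 12.96, 12.72, 12.44 and 13.24. For these 3 genes every high tumor lay above every low tumor, and the differences of the means were 1.76, 1.72 and 1.67 on the log2 scale. *Sftpa1* (SP-A) was at 12.92, 13.03, 12.80 and 12.47 against 11.07, 12.19, 9.89 and 11.73, a difference of 1.58 without overlap, and its lowest value was not in the lowest-scoring tumor. *Sftpb* (SP-B) was at 14.85, 14.72, 13.90 and 14.13 against 13.63, 13.20, 13.66 and 13.17, also without overlap, and had the smallest difference, 0.99, of the 5 genes. Over the 12 tumors, the correlation between pairs of the 5 genes ranged from 0.50 (*Sftpb* and *Sftpa1*) to 0.85 (*Sftpb* and *Sftpd*), given as a description, since tumors shared mice and groups.

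Across all other genes, 174 of 13677 genes were higher and 81 were lower in the surfactant-high tumors, counted when the 4 and 4 tumors did not overlap and the mean log2 CPM differed by at least 1 (2-fold). This is 1.27% and 0.592% of the genes with a mean log2 CPM of at least 0 over the 12 tumors, and these percentages are the background for the counts in each list below. The median difference was 1.46 in the 174 genes and -1.34 in the 81 genes, against 0.00 over all genes compared. Without asking that the tumors not overlap, 726 genes were at least 2-fold higher and 374 at least 2-fold lower. The share of all genes without overlap at any difference is not given, so lack of overlap under 2-fold has no background here. Since bulk RNA was measured, fewer cells of a type and less RNA of a gene per cell cannot be told apart for any of these genes. Of the 174 higher genes 164 were protein-coding in GENCODE M21, and of the 81 lower genes 74, but the share over all genes compared was not counted.

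Among 22 other genes of alveolar type 2 cells that were not in the score, 20 had a higher mean in the surfactant-high tumors and 2 a lower one, with a median difference of 0.92. *Chi3l1*, *Lrp2*, *Slc34a2* and *Cxcl15* were counted as higher and none as lower. *Slc34a2*, the sodium phosphate cotransporter that takes up phosphate freed from surfactant lipids, was at 12.60, 12.40, 12.38 and 12.92 log2 CPM in the high tumors and at 10.68, 11.92, 10.73 and 9.96 in the low tumors, a difference of 1.75. *Lrp2*, the endocytic receptor megalin, was at 8.84, 9.72, 9.61 and 10.48 against 8.66, 7.77, 6.12 and 6.89, a difference of 2.30 in which the nearest tumors, KPG1 replicate 2 and KP_PPARaDN replicate 2, were nearly level. *Chi3l1* (also *Chil1*), a secreted chitinase-like protein, was at 12.53, 11.32, 11.42 and 11.41 against 9.45, 8.97, 10.52 and 6.64, and its difference of 2.78 was the widest of the list. KPG1 replicate 2, the highest-scoring tumor, also had the highest *Chi3l1*, and KPG1_PPARaDN replicate 1, the lowest-scoring, the lowest. *Cxcl15*, the lung chemokine lungkine, was at 11.81, 10.93, 11.97 and 12.18 against 10.23, 10.52, 10.77 and 9.68, a difference of 1.42.

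Of the proteins that load and process surfactant, none but *Slc34a2* was counted. *Abca3*, the lipid pump of the lamellar body membrane, was at 10.52, 10.55, 10.73 and 10.98 in the high and at 9.57, 9.78, 10.02 and 9.52 in the low tumors, so the tumors did not overlap but the difference of 0.97 stayed under 2-fold. *Napsa*, a protease that matures SP-B and SP-C, was at 8.09, 9.30, 8.94 and 8.06 against 7.63, 8.24, 8.28 and 7.83, and *Ctsh*, another protease of SP-B and SP-C, differed by 0.33, with overlap in both. *Lpcat1*, which remodels the main surfactant phospholipid, differed by 0.56, also with overlap. Over the 23 genes of lamellar bodies and surfactant handling, which include *Slc34a2*, *Abca3*, *Napsa* and *Ctsh*, 18 had a higher and 5 a lower mean in the high tumors, the median difference was 0.41, and *Slc34a2* alone was counted as higher. The flippase *Atp11a* differed by 0.67 within overlapping values.

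Transcription factors of the lung epithelium differed in both directions. *Nkx2-1*, the lineage factor of lung epithelium, was at 7.96, 7.81, 8.21 and 8.06 log2 CPM in the surfactant-high tumors and at 8.11, 8.12, 7.71 and 9.03 in the surfactant-low tumors, so its mean was 0.24 lower in the high tumors with overlapping values. Its highest value was in KPG1_PPARaDN replicate 1, the tumor with the lowest score. *Foxa1* was at 5.99, 5.40, 6.40 and 5.85 against 6.80, 6.88, 6.64 and 7.23, lower in every high tumor, but the difference of -0.98 stayed under 2-fold. *Foxa2* was at 6.25, 6.46, 6.12 and 6.25 against 5.98, 5.72, 6.11 and 5.50, and *Cebpa*, which encodes C/EBPα, at 8.94, 8.41, 8.31 and 8.40 against 7.24, 8.50, 7.50 and 7.72. The difference was 0.44 for *Foxa2*, without overlap but with 6.12 against 6.11 in the nearest tumors, and 0.78 for *Cebpa*, with overlap. Of the 15 factors compared, 9 had a higher and 6 a lower mean, the median difference was 0.23 and none was counted in either direction.

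**Figure D2:**
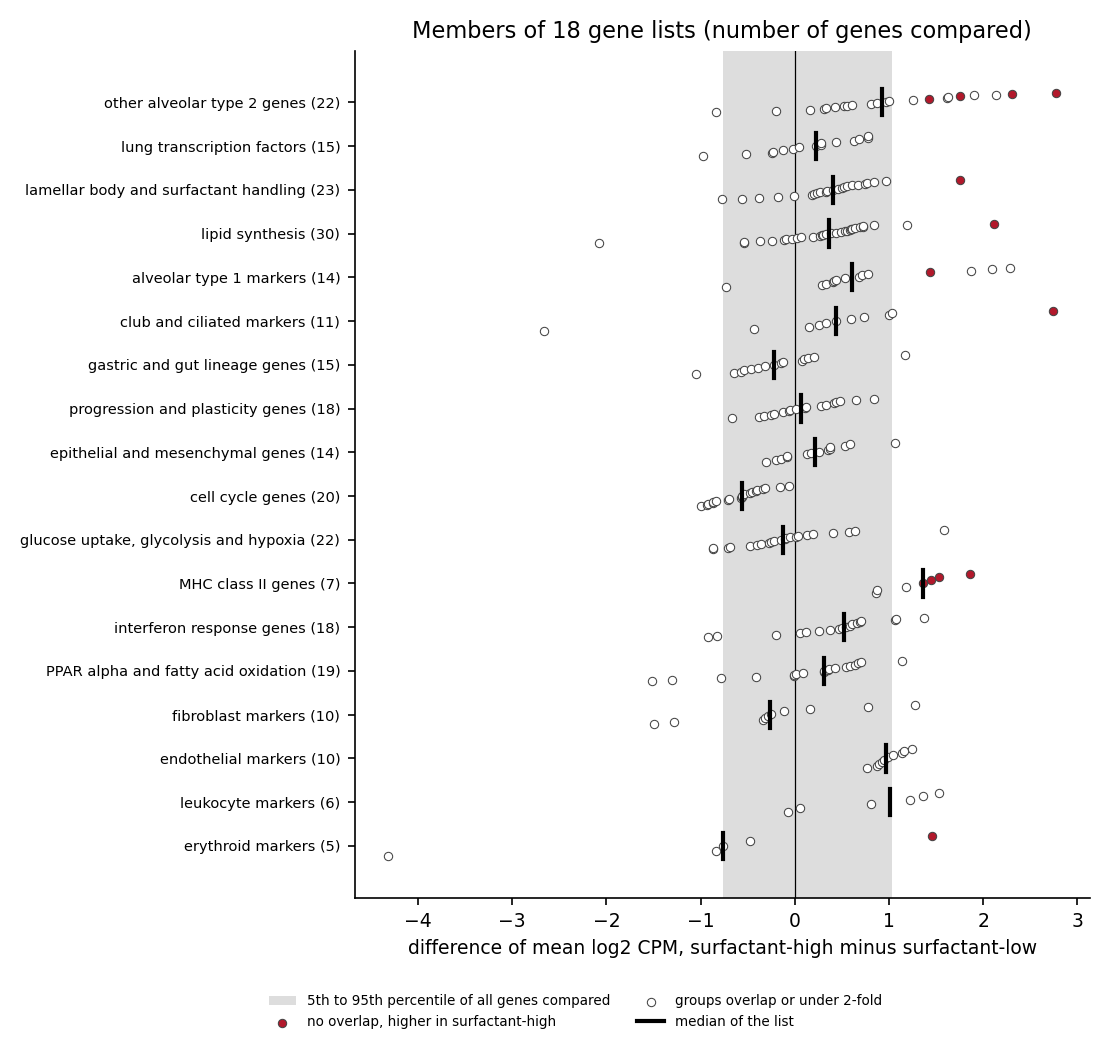
Difference of the mean log2 CPM, surfactant-high minus surfactant-low tumors (x axis), for the members of 18 gene lists (y axis), with one circle per gene, filled red where the 4 and 4 tumors did not overlap and differed at least 2-fold, and a black bar at the median of the list. MHC class II, leukocyte, endothelial and other alveolar type 2 genes sit to the right, with medians of 1.36, 1.02, 0.97 and 0.92, and all 20 cell cycle genes to the left of zero. The leukocyte median is over the 6 of 12 markers that passed the filter, some of them near its limit.

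The 7 genes of antigen presentation by MHC class II were all higher on average in the surfactant-high tumors, with a median difference of 1.36, and 4 of the 7 were counted as higher. MHC class II molecules display peptides from outside the cell to CD4+ T cells, and alveolar type 2 cells are known to carry them. *H2-Aa*, an α chain, was at 9.52, 9.86, 8.86 and 8.99 log2 CPM in the high and at 7.52, 7.75, 8.13 and 6.38 in the low tumors, a difference of 1.87. *H2-Eb1* and *H2-Ab1*, β chains, differed by 1.53 and 1.36 (0.99 for *H2-Ab1* without KPG1_PPARaDN replicate 1), and *H2-DMa*, a subunit of the peptide loading factor, by 1.45. *Cd74*, the invariant chain, was at 11.52, 11.04, 10.75 and 11.44 against 9.94, 9.78, 11.27 and 9.04, a difference of 1.18 in which KP_PPARaDN replicate 1 reached into the range of the high tumors. *Ciita*, which encodes the activator of the class II genes, was at 6.85, 6.34, 5.91 and 6.71 against 5.46, 6.07, 6.05 and 4.74, a difference of 0.87 with overlap. Macrophages and dendritic cells also carry class II molecules, and *Itgax* (CD11c), a marker of both, was at 2.22, 4.11, 3.14 and 1.66 against 2.25, 0.82, 1.64 and 0.29, a difference of 1.53 with overlap. The part of such cells in the class II values was not tested. Among the 18 interferon response genes, 15 had a higher and 3 a lower mean, the median difference was 0.52 and none was counted. *Irf1*, a factor induced by interferon γ, differed by 0.38, with overlap.

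The 250 bases upstream of 2 class II genes are shown with motifs of the X and Y boxes known from this family. Capitals mark the Y box TGATTGG and the end of the X box, ACNGATG, searched on both strands with overlaps allowed. *H2-Aa* (chr17:34287824-34288073, minus strand) and *H2-Eb1* (chr17:34305617-34305866, plus strand) held 1 of each, and neither was found in the windows of the 2 starts that RefSeq gives for *H2-DMa*. In *H2-Eb1* the X box motif lies shortly before the Y box on the same strand. The match in *H2-Aa* is on the opposite strand at the far end of the window, so it is one of letters alone and is not taken as the X box. The other class II genes were not examined.
H2-Aa: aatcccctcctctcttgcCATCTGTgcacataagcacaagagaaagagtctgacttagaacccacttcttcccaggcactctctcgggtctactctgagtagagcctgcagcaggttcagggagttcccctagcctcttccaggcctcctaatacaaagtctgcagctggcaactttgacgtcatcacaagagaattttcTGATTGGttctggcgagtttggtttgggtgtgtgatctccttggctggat
H2-Eb1: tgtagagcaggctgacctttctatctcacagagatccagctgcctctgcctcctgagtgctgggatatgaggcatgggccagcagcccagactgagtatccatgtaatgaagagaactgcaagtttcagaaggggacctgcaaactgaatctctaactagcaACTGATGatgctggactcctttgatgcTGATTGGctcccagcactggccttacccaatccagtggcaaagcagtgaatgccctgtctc
Of the 32851 promoters, 7.23% held the Y box and 8.31% the X box motif.

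Of 30 lipid synthesis genes, 22 had a higher and 8 a lower mean in the surfactant-high tumors, the median difference was 0.36, and *Scd1* alone was counted as higher. *Scd1*, the desaturase that makes monounsaturated fatty acids, was at 10.74, 11.94, 11.68 and 10.72 log2 CPM in the high tumors and at 10.07, 8.93, 9.61 and 7.99 in the low tumors, a difference of 2.12, and the 4 middle tumors, at 10.85, 10.39, 10.08 and 10.17, lay between or among them. The lipogenic regulator *Srebf1* was at 7.34, 7.54, 7.33 and 7.81 against 7.01, 7.77, 6.96 and 6.71, and the sterol regulator *Srebf2* differed by 0.29. *Scap*, which escorts both to their activation, was at 5.58, 5.79, 5.72 and 5.44 against 6.17, 6.08, 6.23 and 6.23, lower in every high tumor by 0.54 on average but under 2-fold. Among the 19 genes of PPARα and fatty acid oxidation, 13 had a higher and 6 a lower mean, with a median difference of 0.31 and none counted.

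The genes that the design changes did not order the tumors by score. *Slc2a1* was at 5.99, 6.76, 5.86 and 5.33 log2 CPM in the surfactant-high tumors and at 6.87, 5.11, 7.26 and 4.55 in the surfactant-low tumors, a difference of 0.04. *Ppara*, whose reads can include the transgene, was at 3.39, 7.94, 3.27 and 3.95 against 6.04, 3.36, 1.45 and 3.13. The 3 tumors labelled KP_PPARaDN thus ran from the highest to the lowest *Ppara* value of the 12, with 7.94 in the one that was surfactant-high and 6.04 and 1.45 in those that were surfactant-low. In the 3 KPG1_PPARaDN tumors *Ppara* was at 3.13, 4.27 and 4.13, and in the 6 tumors on the regular diet it ranged from 2.88 to 3.97, so *Ppara* did not separate the diets. Of 22 genes of glucose uptake, glycolysis and hypoxia, 8 had a higher and 14 a lower mean, the median difference was -0.12 and none was counted. The glucose transporter *Slc2a3* ranged from 4.59 to 8.38 in the high and from 5.10 to 9.48 in the low tumors.

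Genes of the cell cycle were lower on average in the surfactant-high tumors in 20 of 20 cases, with a median difference of -0.56 and a range of -0.99 to -0.06, but none reached 2-fold without overlap. *Mki67*, a marker of proliferating cells, was at 6.95, 5.60, 7.03 and 6.57 log2 CPM against 7.17, 7.15, 7.11 and 6.89, so the high tumors reached into the range of the low tumors. *Top2a* (topoisomerase IIα) and *Ccnb1* (cyclin B1) differed by -0.45 and -0.48, and KP_PPARaDN replicate 3 had the lowest value of both, at 5.18 and 2.63. The differences of such genes rested in large part on this tumor. Within KP_PPARaDN, where it was the only high tumor, *Mki67*, *Top2a*, *Ccna2* (cyclin A2) and *Ccnb1* differed by -1.54, -1.34, -1.58 and -1.68. Within KP they differed by -0.12, 0.09, 0.98 and -0.23, so the direction was not shared by all 4 genes there. The middle tumor KPG1 replicate 1, at 7.79, had the highest *Mki67* of the 12, in spite of its score of 12.33. Outside the list, *Ccne1*, cyclin E1 of the G1 to S transition, was among the 81 lower genes, at 1.97, 1.90, 2.61 and 2.95 against 3.76, 5.0, 3.26 and 4.39, a difference of -1.74. *Cdca7l*, a MYC-interacting factor, was at 4.09, 2.41, 4.22 and 4.65 against 6.08, 6.12, 5.59 and 5.78, a difference of -2.05, and *Fignl1*, a factor of recombination repair, differed by -1.48. The 4 middle tumors were at 2.35 to 3.26 for *Ccne1* and at 4.10 to 4.93 for *Cdca7l*.

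**Figure D3:**
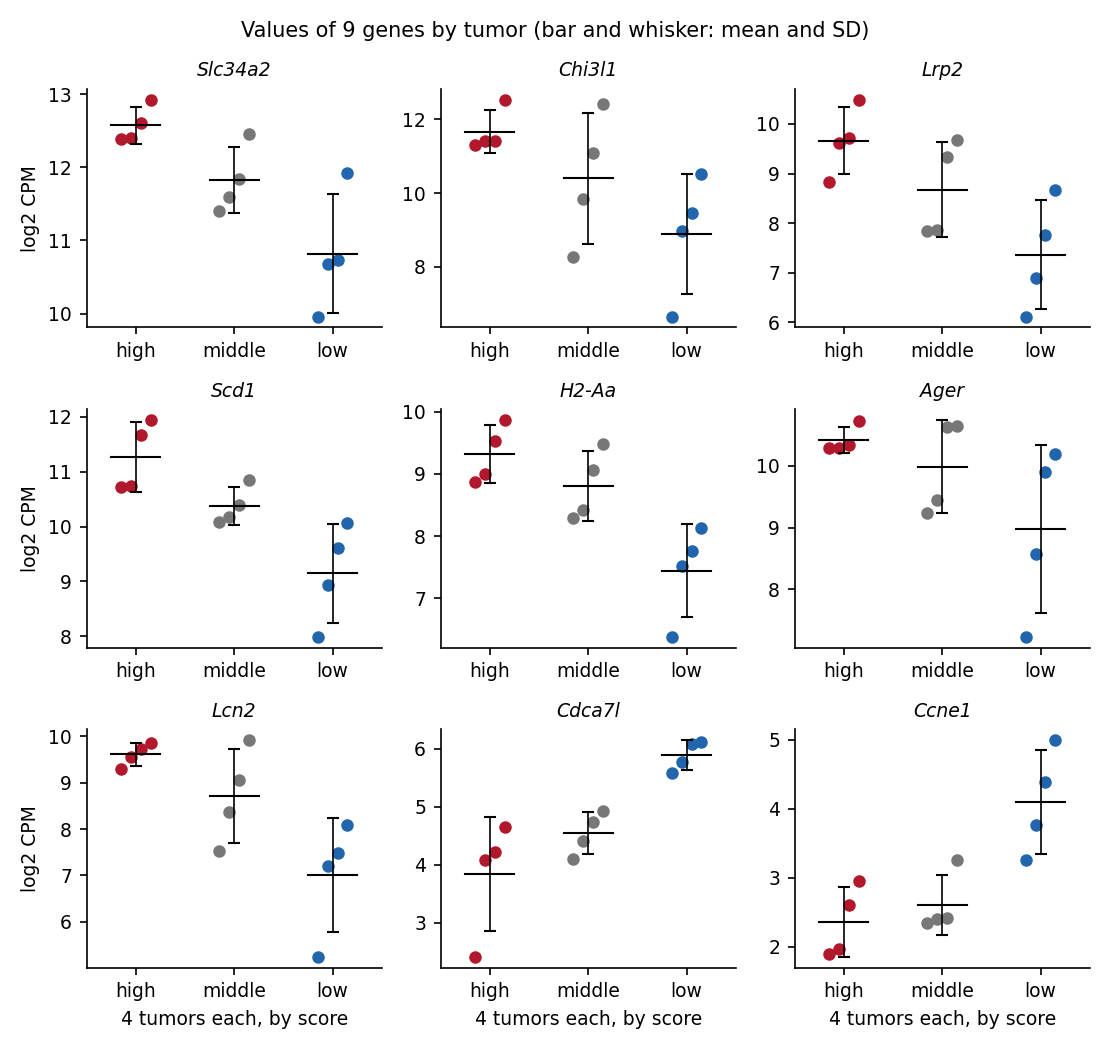
Deposited log2 CPM (y axis) of 9 genes in the surfactant-high, middle and surfactant-low tumors (x axis, 4 each), with one point per tumor, a bar for the mean and a whisker for the SD. The high and low points do not overlap in any of the 9 genes, which was asked of every counted gene. The middle tumors of Chi3l1, Ager and Lcn2 reach from the level of the high tumors into that of the low tumors.

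Lineage genes that mark other states of lung tumors gave no count in either direction. Of 15 gastric and gut genes, 5 had a higher and 10 a lower mean, with a median difference of -0.22, and *Hnf4a*, a factor of the gut and liver lineage, differed by -0.13. *Onecut2*, a factor of the liver and gut lineage, ranged from 1.15 to 5.49 in the high and from 0.03 to 5.67 in the low tumors. Of 18 genes of progression and plasticity, 10 had a higher and 8 a lower mean, with a median difference of 0.06. *Hmga2*, a chromatin factor of advanced tumors, was at -0.37, 4.14, 3.30 and -2.74 against -0.15, 1.54, 0.07 and 3.07, a wide spread on both sides, and *Itga2* and *Krt8* differed by -0.12 and 0.27. Of 14 epithelial and mesenchymal genes, 9 had a higher and 5 a lower mean, with a median of 0.22, and E-cadherin (*Cdh1*) and *Epcam* differed by -0.08 and -0.31.

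Markers of the other alveolar epithelial cell, the flat type 1 cell, were higher on average in 13 of 14 cases, with a median difference of 0.61. *Ager* alone was counted as higher, at 10.34, 10.72, 10.30 and 10.28 log2 CPM in the high and at 10.18, 7.23, 9.91 and 8.57 in the low tumors, a difference of 1.44 that was 0.86, under 2-fold, without KP replicate 2. The water channel *Aqp5* was at 9.39, 9.77, 8.77 and 7.95 against 8.34, 3.33, 8.15 and 6.91, and the membrane protein *Pdpn* at 6.74, 6.14, 6.75 and 6.88 against 5.38, 1.20, 6.96 and 4.62. Their differences of 2.29 and 2.09 came with overlap and rested in part on KP replicate 2, which was far below the other 3 low tumors in both. Of 11 club and ciliated cell markers, 9 had a higher and 2 a lower mean, with a median of 0.44 and 1 counted. This was *Cyp2f2*, a cytochrome P450 of club cells, at 7.59, 6.55, 5.45 and 5.45 against 3.64, 2.19, 4.82 and 3.40, a difference of 2.74. *Scgb1a1*, which encodes the club cell protein whose promoter drives rtTA, was at 4.67, 4.41, 3.36 and 6.26 against 4.17, 3.00, 2.48 and 7.29, with overlap.

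Markers of cells other than epithelium also differed between the sides. All 10 endothelial markers had a higher mean in the surfactant-high tumors, with a median difference of 0.97, and none was counted. The summed CPM of these markers was 214.7, 978.1, 481.1 and 513.6 in the high tumors and 293.9, 267.8, 176.0 and 275.9 in the low tumors. The endothelial receptor *Kdr* was at 4.29, 6.92, 5.87 and 5.78 log2 CPM against 4.83, 4.40, 3.93 and 4.70, and the junction protein *Pecam1* at 5.07, 7.30, 6.39 and 6.43 against 5.67, 5.30, 4.70 and 5.83. KP_PPARaDN replicate 3 thus had the most endothelial RNA, and KPG1 replicate 2, the tumor with the highest score, had less than 3 of the 4 low tumors and was within their range for both genes. Of 12 leukocyte markers, 6 passed a mean log2 CPM of 0, of which 5 had a higher and 1 a lower mean, with a median of 1.02 and none counted. Their sum was 40.5 to 89.8 CPM in the high and 39.7 to 46.2 CPM in the low tumors. On the log2 scale *Itgax* differed by 1.53, the macrophage marker *Emr1* by 1.37, the pan-leukocyte marker *Ptprc* (CD45) by 0.81 and *Itgam* (CD11b) by -0.07. *Emr1* had a mean of 0.36 over the 12 tumors, with 1.03 in the high and -0.34 in the low tumors. It thus passed the filter in part through the high side, and the median of 1.02 over the 6 markers is limited by this. The T cell marker *Cd3e* and the B cell marker *Ms4a1* had means of -3.49 and -3.64 log2 CPM. Of 10 fibroblast markers, 3 had a higher and 7 a lower mean, with a median of -0.27, and *Col1a1* (collagen I) was at 4.74, 6.28, 6.12 and 5.92 against 7.19, 4.85, 6.51 and 5.53. The part of these cells in the differences between the sides was not tested.

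**Figure D4:**
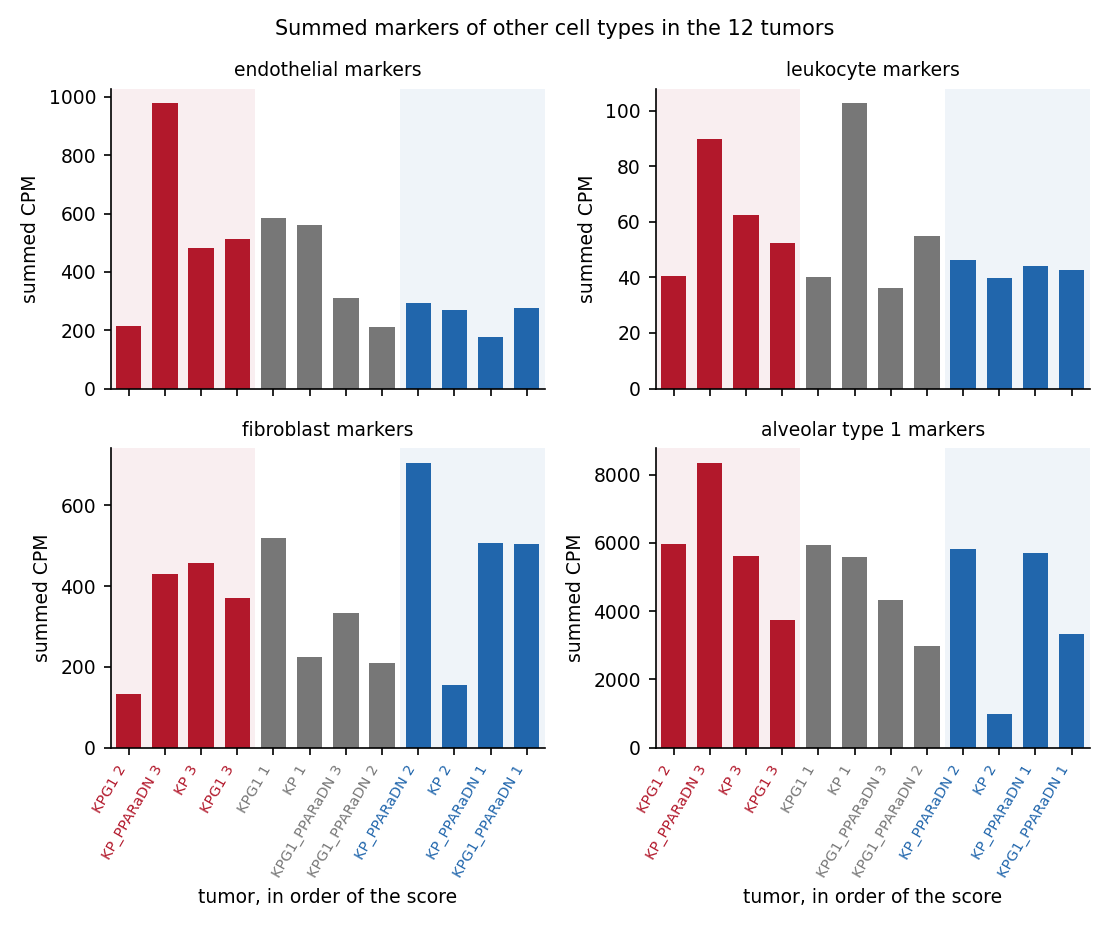
Summed CPM (y axis, from 0) of the endothelial, leukocyte, fibroblast and alveolar type 1 markers in each of the 12 tumors in order of the score (x axis), with bars in red for surfactant-high, gray for middle and blue for surfactant-low tumors. The endothelial sum is 214.7 to 978.1 in the high and 176.0 to 293.9 in the low tumors, and the alveolar type 1 sum is lowest, at 992.2, in KP replicate 2.

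Of 5 red cell genes, 1 had a higher and 4 a lower mean in the surfactant-high tumors, with a median difference of -0.76. *Hbb-bt*, a β-globin, was counted as higher, at 8.59, 9.03, 8.59 and 9.10 against 6.53, 7.36, 7.31 and 8.27, a difference of 1.46, while *Hbb-bs*, its near-identical neighbor, differed by -0.84. *Hba-a2*, an α-globin, was at -3.06, 5.10, 4.15 and -0.86 against 6.26, 3.68, 5.75 and 6.91, and *Hba-a1*, from a near-identical gene, differed by -0.47. Reads of such gene pairs can be assigned to either copy, so each single globin value is uncertain. Of 4 mesothelial markers, 1 passed the filter, *Msln*, which ranged from 3.86 to 8.20 in the high and from 1.22 to 7.94 in the low tumors.

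The genes with the largest differences, among those counted as higher with a mean log2 CPM of at least 3, were *Car4*, *Add3*, *Dclk1*, *N28178*, *C4b*, *Chi3l1*, *Cyp2f2*, *Entpd1*, *Lcn2*, *Bst1*, *Lrg1* and *Pdzk1ip1*, with differences from 3.45 to 2.48. *Car4*, a carbonic anhydrase at the cell surface, was at 5.81, 3.04, 3.77 and 5.94 log2 CPM in the high tumors and at 1.46, 1.60, 0.48 and 1.22 in the low tumors. *Add3* (adducin 3, of the membrane skeleton) was at 6.23, 5.20, 4.89 and 4.65 against 2.86, 1.74, 2.38 and 2.27, and the 4 middle tumors, at 5.43, 4.61, 2.26 and 2.40, split into 2 like the high and 2 like the low tumors. *Dclk1*, a doublecortin-like kinase, was at 5.46, 5.38, 4.45 and 4.49 against 2.82, 0.46, 2.79 and 2.17. That the low tumors lay below all high tumors in each was asked of every counted gene, and the middle tumors were mixed. *Lcn2*, lipocalin 2, which binds bacterial siderophores, was at 9.54, 9.73, 9.29 and 9.86 against 7.47, 8.08, 7.21 and 5.24, a difference of 2.60 with the high tumors close together. *C4b*, complement component C4, was at 5.91, 6.78, 4.07 and 5.38 against 3.59, 3.12, 2.19 and 2.05, and *Lrg1*, a leucine-rich glycoprotein of the acute phase, at 6.09, 7.43, 6.29 and 5.74 against 4.67, 3.02, 4.44 and 3.40. *Bst1* (CD157, a surface enzyme) had 2 high tumors at 5.91 and 6.26 and 2 at 3.30 and 3.35 against 1.44 to 2.78 in the low tumors, and its highest value of the 12 tumors, 7.17, was in the middle tumor KPG1_PPARaDN replicate 3. *Entpd1* (CD39, which degrades extracellular ATP) was at 6.76, 6.75, 6.81 and 5.61 against 5.13, 2.88, 3.63 and 3.77.

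The genes with the largest differences among those counted as lower, with the same limit on the mean, were *Rpl7a-ps11*, *Rasa4*, *Cdca7l*, *Apoa1*, *Zfp518b*, *Ccne1*, *Lphn1*, *Spire1*, *Rhobtb3*, *Fignl1*, *Clstn3* and *Gpr97*, with differences from -10.13 to -1.42; *Clstn3* was at -0.95 without KP_PPARaDN replicate 3. *Rpl7a-ps11*, a pseudogene of a ribosomal protein gene, was at -3.06, -1.81, -2.66 and -4.32 log2 CPM in the 4 high tumors and at 7.51, 7.56, 6.34 and 7.28 in the 4 low tumors. The 4 middle tumors were all near the low tumors, at 7.50, 7.15, 5.33 and 7.82, so this gene did not grade with the score, and whether it shares reads with other copies of the gene was not tested, so its values are uncertain. *Rasa4*, a GTPase-activating protein of Ras, was at 2.75, 3.79, 3.30 and 3.38 against 5.57, 7.77, 4.64 and 5.08, a difference of -2.46. *Apoa1*, the main protein of high-density lipoprotein, was at 4.47, 2.99, 4.01 and 3.36 against 4.78, 6.97, 5.17 and 5.63, a difference of -1.93. The adhesion receptor *Lphn1* (-1.71), the actin nucleator *Spire1* (-1.61) and *Gpr97*, another adhesion receptor (-1.42), had smaller differences. KP replicate 2 had the highest value of the 12 tumors for *Rasa4*, *Apoa1* and *Lphn1*.

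**Figure D5:**
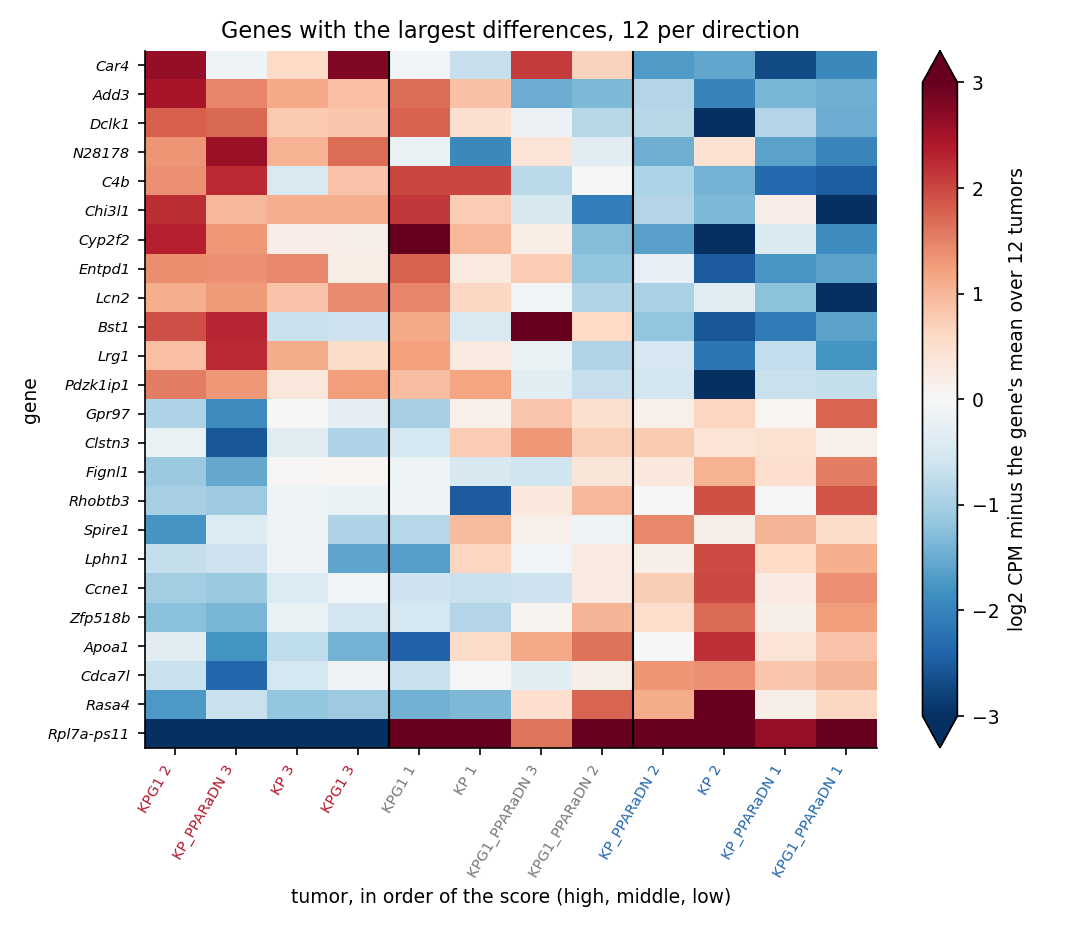
Log2 CPM minus the gene's mean over the 12 tumors (color, red above and blue below, cut at 3 in either direction) for the 24 genes with the largest differences among counted genes with a mean log2 CPM of at least 3 (y axis) in the tumors in order of the score (x axis), with black lines between the high, middle and low tumors. The middle tumors are mixed for most genes, while Rpl7a-ps11 is low in the 4 high tumors alone.

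One library stood apart from the others by its whole profile. KP replicate 2, a surfactant-low tumor, had the most extreme loading, -0.68, on the first principal component, which held 25.1% of the variance. Without it, 288 genes were counted as higher and 150 as lower, and these included 155 of the 174 and 73 of the 81 genes. Leaving out any 1 of the 8 tumors gave more genes in all, 267 to 490 against 255, with fewer tumors that could overlap. The rise is thus not particular to KP replicate 2. *Dclk1* and *Pdzk1ip1* had their lowest values, 0.46 and 0.40, in KP replicate 2, and *Ager* was not counted without it.

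The 4 middle tumors, which the rule did not use to choose genes, were then divided into the 2 with the higher and the 2 with the lower scores. Of the 174 higher genes, 134 (77.0%) were higher on average in the upper pair, against 49.5% of all genes compared, and the median difference was 0.79. Of the 81 lower genes, 56 (69.1%) were lower in the upper pair, against 50.5% of all genes, with a median of -0.37. The scores of the pairs differed by 0.60. The score that chose the high and low tumors also made this split, so these shares are a description and carry no test. The upper pair, KPG1 replicate 1 and KP replicate 1, came from mice on the regular diet and the lower pair were both KPG1_PPARaDN tumors on doxycycline, so the score and the diet cannot be told apart here, and 3 of these tumors shared a mouse with a chosen tumor. *Chi3l1* was at 12.43 and 11.08 log2 CPM in the upper pair and at 9.84 and 8.26 in the lower pair, and *Lcn2* at 9.91 and 9.06 against 8.36 and 7.53. *H2-Aa* followed the same order, at 9.06 and 9.48 against 8.41 and 8.29. *Car4* did not, at 3.08 and 2.47 against 5.25 and 3.86.

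The labelled comparisons, which the rule did not use, were tested over all genes with edgeR's quasi-likelihood test and Benjamini-Hochberg adjustment. Between doxycycline and the regular diet, over both genotypes, 3 of 16527 genes (0.0182%) passed an adjusted p of 0.05, and between the fl/fl and wt/wt genotypes, over both diets, 8 genes (0.0484%). None of the 174 higher or 81 lower genes was among them, with 28 (16.1%) and 11 (13.6%) at an unadjusted p under 0.05 for doxycycline, against 10.1% of all genes. For genotype these were 2 (1.15%) and 5 (6.17%), against 4.53% of all genes. With DESeq2, 8 of the 174 genes (*Chi3l1*, *Slc16a4*, *Syt2*, *Mlc1*, *Sidt1*, *Cxcl15*, *Pycard* and *Lrrk2*) and 1 of the 81 (*Raet1d*) passed for doxycycline, of 286 genes in all, and none for genotype, and with limma voom none passed for either. In the fitted doxycycline effect, 159 of the 174 higher genes had a negative and 15 a positive log2 fold change, with a median of -0.53 against 0.01 over all genes tested, and 76 of the 81 lower genes a positive and 5 a negative one, with a median of 0.45. The tumors on each side were mostly of 1 diet, so these directions are partly set by the choice of tumors. For genotype the 174 genes divided into 95 positive and 79 negative, with a median of 0.06, and the 81 genes into 13 and 68, with a median of -0.26, against -0.01 over all genes. The low side held 3 wt/wt tumors and 1 fl/fl tumor, so these directions too are partly set by the choice.

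None of the 5 score genes passed in either labelled comparison. *Lamp3* had a log2 fold change of -1.11 ± 0.36 (SE) with doxycycline and an edgeR adjusted p of 0.356, and *Sftpc* one of -0.87 ± 0.36 with an adjusted p of 0.449. *Sftpd* changed by -0.69 ± 0.41, *Sftpa1* by -0.67 ± 0.42 and *Sftpb* by -0.29 ± 0.33, with edgeR adjusted p of 0.609, 0.637 and 0.827. Of these, *Lamp3* and *Sftpc* had unadjusted p under 0.05, at 0.00995 and 0.033. For genotype, the largest value of the 5 genes was 0.61 ± 0.36 for *Sftpc*, with an edgeR adjusted p of 0.976, and the others lay between -0.12 and 0.12. *Cxcl15* had the lowest adjusted p for doxycycline of the alveolar type 2 genes, with -1.23 ± 0.26 and an edgeR adjusted p of 0.183. *Scd1*, *H2-Aa* and *Ager* had values of -0.44 ± 0.53, -0.63 ± 0.46 and -0.47 ± 0.43, with edgeR adjusted p of 0.842, 0.694 and 0.770. Of the 108 genes named here, *Hba-a2* alone passed for doxycycline, with 4.62 ± 0.48 and an edgeR adjusted p of 0.00429, and with edgeR none passed for genotype, where its adjusted p was 0.0698. DESeq2 called *Hba-a2* for genotype, and for doxycycline it called *Chi3l1*, *Cxcl15*, *Onecut2*, *Hba-a2* and *Hbb-bs* among these genes. *Hba-a2* was at -1.92, -3.06 and -0.86 log2 CPM in the KPG1 tumors and at 3.68 to 4.70 in the KP tumors. On doxycycline it was at 4.87 to 6.91, so its fold change rested more on the low KPG1 values. Its reads can also be assigned to a near-identical copy, so its values are uncertain. The test of whether the doxycycline effect differed between genotypes gave a smallest edgeR adjusted p of 0.330 among the 108 genes.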

How the data were processed

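RNA of the CD45-negative fraction of 12 lung tumors was sequenced from stranded mRNA libraries. Per the submitters' processing notes, reads were converted with bcl2fastq 2.17, trimmed with cutadapt 1.4.2, aligned to mm10 with HISAT2 and counted per gene with featureCounts 1.4.4; the annotation is not given in the sources used here. The authors deposited raw counts per gene and log2 values, and the deposited log2 values equal the log2 of (count + 0.5) relative to the TMM-scaled library size on the CPM scale, here called log2 CPM. Tumors were grouped by their labels, and the mouse was read from a number in them.

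The score, the 4 high and 4 low tumors and all differences were computed from the deposited log2 values, over genes with a mean of at least 0 and without the 5 score genes. The labelled comparisons used the deposited counts with edgeR 4.0.16 (TMM, filterByExpr, glmQLFit, glmQLFTest) (R 4.3.3) on 4 group means of the 12 tumors, which leave 8 residual degrees of freedom, and Benjamini-Hochberg adjustment. Standard errors are the log2 fold change over the square root of F. The p-values treat the tumors as independent, although 3 pairs shared a mouse, and small counts limit genes near a log2 CPM of 0. DESeq2 1.42.0 and limma 3.58.1 voom, the filters, the scaling, sex, the replicate number and single tumors were varied. Scripts were tested on simulated data.

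Members and gene lists were chosen with earlier results of these data known. Named genes are the 5 score genes, per list up to 5 counted members with the largest differences and up to 4 further members in list order, 12 genes per direction with a mean of at least 3, *Ppara* and *Slc2a1*; *Cd3e*, *Ms4a1* and the genes called by DESeq2 alone were named after their values were seen. Positions are from GENCODE M21, which held 96.4% of the gene identifiers, and upstream sequences from RefSeq. Some alleles and list members are not reported here.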

Additional observations from a re-analysis of the deposited data

Results flagged for a closer look

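Of 78 sets of 4 tumors, 1 side of 1 gene each, 5 held a tumor whose gap to the others was wide for a set of 4. Chance marks about 1 in 20 of sets not chosen by their values, and since the score chose these sides, the gaps are a description. *Lamp3* was at 6.81 log2 CPM in KPG1_PPARaDN replicate 1, against 8.74 to 9.03 in the other surfactant-low tumors, and as a score gene it helped to place that tumor lowest. *Pdzk1ip1* was at 0.40 in KP replicate 2, against 3.24 to 3.40 in the other surfactant-low tumors. *Chi3l1* was at 12.53 in KPG1 replicate 2, against 11.32 to 11.42 in the other surfactant-high tumors. *Ager* was at 10.72 in KP_PPARaDN replicate 3, against 10.28 to 10.34 in the other surfactant-high tumors. *Entpd1* was at 5.61 in KPG1 replicate 3, against 6.75 to 6.81 in the other surfactant-high tumors.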

How the results depend on the processing

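The 174 higher and 81 lower genes (255 in all) depended on how many tumors were taken: 3 against 3 gave 335 and 198 (533), and 5 against 5 gave 114 and 44 (158). Without a filter on low values the counts were 275 and 187 (462), with a mean log2 CPM of at least 3 they were 121 and 41 (162), and at 1.5-fold they were 369 and 227 (596). Values centered on the labelled group, with the difference alone asked, gave 435 and 174 (609), of which 88 and 35 were shared with the main counts. Without centering, the difference alone gave 726 and 374, which are the values to set beside these counts and the next. Within KP and KP_PPARaDN alone, an alternative chosen after seeing the data, the difference alone gave 1146 and 573 (1719). It rested on 1 high tumor per group, against 1 low tumor in KP and 2 in KP_PPARaDN. Leaving out each tumor gave 190 to 384 higher and 77 to 198 lower genes (267 to 490 in all); without KPG1 replicate 2 there were 384 higher genes, and without KP replicate 3 there were 198 lower. A score without *Sftpc* or *Sftpb* exchanged 1 high tumor and gave 250 and 245 genes, 168 and 186 of them shared, while leaving out any other score gene or scaling the 5 genes chose the same 8 tumors, as did both other scalings of the counts. No mouse gave 2 of the 8 tumors, so averaging tumors of a mouse leaves them as they were. None of the 34 named genes counted as higher or lower reversed under any of these alternatives. Where an alternative used the same values and only tumors of the same 8, the lack of overlap fixed the direction beforehand. In the middle tumors, with a mean of at least 3, 77.7% and 68.3% kept their direction, against 49.6% and 50.4% of all genes compared, again as a description.

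For doxycycline, 3 genes passed with edgeR, 286 with DESeq2, 5 without a filter and 2 to 13 when a tumor was left out, with 13 without KP_PPARaDN replicate 3 and 6 without KPG1_PPARaDN replicate 1. For genotype, 8 passed with edgeR, 39 with DESeq2, 3 with the tumors of a mouse summed and 6 to 11 when a tumor was left out. Tumors with the same replicate number did not deviate together (18 pairs, correlations of -0.19 to 0.13), and with the number as a replicate block 4 and 5 genes passed. The genotype log2 fold change of *Sftpc*, 0.61 in the main fit, kept its sign. Those of the other score genes were near 0 and turned sign: -0.076 for *Sftpa1* with sex as a covariate, and -0.15 to 0.73 (*Sftpa1*), -0.33 to 0.12 (*Sftpb*), -0.088 to 0.47 (*Sftpd*) and -0.27 to 0.20 (*Lamp3*) when a tumor was left out. The cause of these shifts was not tested.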
